A study of Danio rerio with 13 samples.

Results

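Wild-type zebrafish larvae treated with 2-HD were compared with untreated wild-type larvae by RNA sequencing. The comparison rests on 10 of the 13 libraries of the series, and every gene in the count table was eligible. All 10 come from the Tg(fli1:EGFP) line, in which the fli1 promoter drives green fluorescent protein in endothelial cells, so treated and control larvae carry the same transgene. The control group holds 5 libraries, numbered 3, 5, 10, 13 and 14, and the treated group holds 5, numbered 1 to 5. The labels call both groups +/+ for aldh3b1. Numbers follow the names in the count table, and the title of wild type 3 carries the number 1. Neither the full name of 2-HD nor its dose, duration, larval age, clutch or batch is given, and no group received vehicle alone, so 2-HD, its solvent and the handling of the treated larvae cannot be told apart. The series concerns aldh3b1 in diabetic retinopathy. Its 3 knockout libraries entered the fit through the filter on low counts, the scaling of counts and the shared estimate of spread. With the 10 libraries alone 21417 genes were tested, against 22158 with the knockouts. The labels do not state whether each library comes from its own pool of animals. The p-values therefore reflect only how much these samples vary, and that variation may be technical.

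Aldehyde dehydrogenases oxidise reactive aldehydes to acids, and the ALDH3 enzymes act on the long-chain aldehydes released when membrane lipids and sphingolipids are broken down. Sphingosine-1-phosphate lyase makes one such aldehyde, hexadecenal, in the last step of sphingolipid degradation. The retina of the larval zebrafish is rich in cones, its photoreceptors renew their outer segments throughout life, and its retinoid and lipid turnover produces aldehydes that must be cleared. Whole larvae contain all tissues in one RNA pool. A lower summed level of a tissue's genes therefore does not separate fewer cells of that type from less RNA per cell.

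Values are CPM, counts scaled to a common library size with TMM factors, given as mean ± SD over 5 libraries in each group unless single libraries are listed. Rises and falls refer to genes called at an adjusted p under 0.05 in edgeR's quasi-likelihood test, with Benjamini-Hochberg adjustment over the 22158 genes tested of 32417 in the table. Totals ran from 17975289 to 19009200 counts in wild type and from 19339056 to 19482661 with 2-HD, ranges that do not overlap. The 10 most abundant genes held 10.9% to 11.7% of counts in wild type and 9.20% to 10.7% with 2-HD. On the first principal component, which held 45.0% of the variance among the 10 libraries, wild type lay between -51.6 and -15.7 and 2-HD between 7.60 and 50.7. On the second, with 17.8%, wild type 14 and 2-HD 1 stood apart from the other libraries, at -39.2 and -52.6, whereas the rest lay at 1.03 or above. Counts of list members are also given without these libraries where that moved a printed count of over 2 members by 4 or more or by over 1.5-fold. Printed counts of 1 or 2 members often moved by 1 when a single library was left out.

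Treatment was accompanied by small changes in very many genes. The call was passed by 9398 genes, 42.4% of those tested, with 5030 higher (22.7%) and 4368 lower (19.7%). Scaling by library totals alone moved the median log2 fold change of all genes from 0.023 to 0.12 and the share of called genes that were higher from 53.5% to 67.1%. The median called gene differed by 0.53 on the log2 scale, and 1238 called genes (5.59%) differed by over 2-fold, of which 945 were higher (4.26% of genes tested) and 293 lower (1.32%). The 5 libraries of each group did not overlap for 5705 genes (25.7%), 2992 of them above all wild types (13.5%) and 2713 below (12.2%). Of the called genes, 5598 (59.6%) were without overlap. The 68 gene lists described here were set against these shares, as drawn in the plot of members called per list. They were chosen with earlier results of these data known, so their shares and their ranking may reflect that choice.

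**Figure D1:**
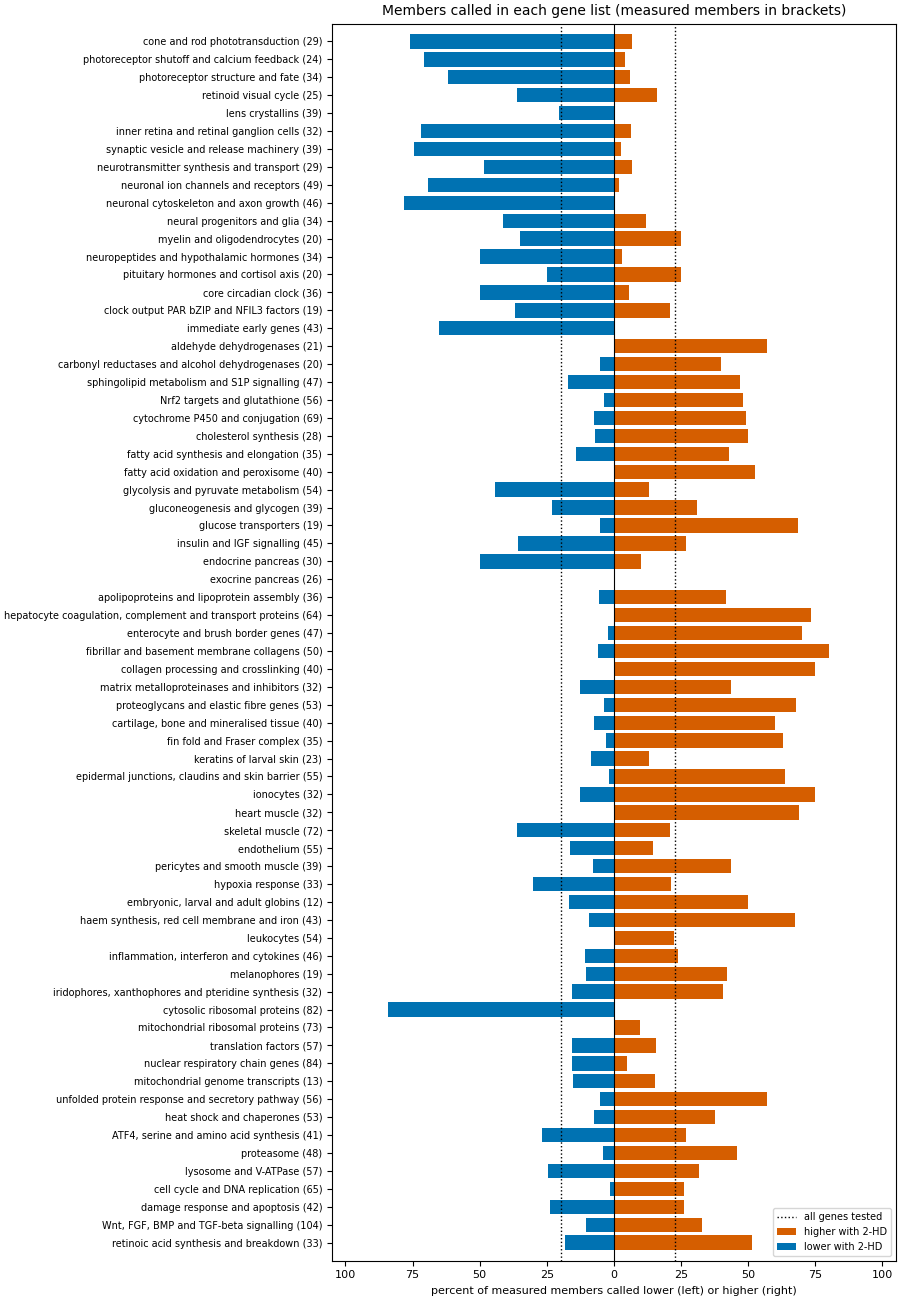
Percent of measured members called lower (left, blue) or higher (right, orange) with 2-HD in each of 68 gene lists, with the number measured in brackets. Dotted lines mark the shares over all genes tested, 19.7% lower and 22.7% higher. Retinal, neuronal and cytosolic ribosomal lists extend to the left, and matrix, liver, gut, ionocyte and heart lists to the right.

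Among the enzymes of aldehyde removal, 12 of 21 (57.1%) aldehyde dehydrogenases rose. The aldh3b1 gene itself was read at 4.62, 5.22, 6.03, 7.19 and 7.45 CPM in wild type 3, 5, 10, 13 and 14, and 13.2, 8.13, 9.72, 8.79 and 10.9 CPM in 2-HD 1 to 5. All 5 treated libraries lay above all 5 controls, at a low level. Its relative aldh3a2b, an ortholog of the human fatty aldehyde dehydrogenase, rose from 9.08 ± 2.08 to 20.6 ± 3.43 CPM, which is 1.18 on the log2 scale with an SE of 0.16 and an adjusted p of 8.42e-05. The other copy, aldh3a2a, rose by a log2 of 0.28 and lost its call in 4 of the 10 fits without 1 library. Mitochondrial acetaldehyde-oxidising aldh2.2 rose from 53.8 ± 6.55 to 80.7 ± 3.31 CPM, while its close paralogue aldh2.1 read 19.9 ± 1.46 CPM in wild type and 21.4 ± 2.02 CPM with 2-HD and was not called. Retinaldehyde-oxidising aldh1a2, the main source of retinoic acid in the embryo, rose by 0.50. The summed level of the family was 1275 to 1469 CPM in wild type and 1550.0 to 1773 CPM with 2-HD. Of the carbonyl reductases, alcohol dehydrogenases and related enzymes, 8 of 20 (40%) rose and 1 fell. Carbonyl reductase cbr1 rose from 12.9 ± 2.90 to 24.9 ± 5.42 CPM, and the aldehyde oxidase aox5 from 14.7 ± 2.62 to 29.8 ± 5.19 CPM. Glyoxalase glo1, which clears methylglyoxal formed from glucose breakdown, read 75.4 ± 7.30 CPM in wild type and 68.7 ± 1.94 CPM with 2-HD and was not called (log2 fold change -0.13, 95% interval -0.29 to 0.02). Formaldehyde-clearing adh5 was also not called, at 0.07 (-0.11 to 0.25).

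Of the sphingolipid genes 22 of 47 (46.8%) rose and 8 (17.0%) fell, the latter share under the 19.7% of all genes. The lyase gene sgpl1, whose product cleaves sphingosine-1-phosphate, read 147, 178, 165, 90.6 and 123 CPM in wild type 3, 5, 10, 13 and 14, and 223, 279.8, 268, 253 and 239.8 CPM in 2-HD 1 to 5. Each treated library exceeded each control, and the log2 fold change was 0.85 (SE 0.15, adjusted p = 0.000458). A subunit of the enzyme that starts sphingolipid synthesis, sptlc3, rose from 11.5 ± 1.88 to 21.8 ± 2.36 CPM, and the glycolipid transfer protein gltpa from 9.96 ± 1.86 to 19.2 ± 2.06 CPM. Ceramide synthase cers6 fell by 0.69 on the log2 scale. In signalling by the lipid, expression of s1pr1, the endothelial sphingosine-1-phosphate receptor, fell from 93.4 ± 8.30 to 62.0 ± 4.14 CPM, and that of the exporter spns2 from 30.6 ± 3.23 to 24.3 ± 1.43 CPM.

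Genes of drug and glutathione metabolism also rose in many cases. Of the P450, conjugation and xenobiotic receptor genes 34 of 69 (49.3%) rose and 5 fell, and of the Nrf2 and glutathione genes 27 of 56 (48.2%) rose and 2 fell. The last 2 counts were 23 and 4 without wild type 14 and 2-HD 1. The 5 P450 and conjugation genes that fell became 3 without wild type 10 or without 2-HD 2. The aryl hydrocarbon receptor target cyp1a rose from 24.9 ± 1.89 to 41.6 ± 3.75 CPM, the pregnane X receptor gene nr1i2 from 7.04 ± 1.13 to 14.1 ± 2.64 CPM, and the glucuronosyltransferase ugt5b1 from 4.01 ± 1.08 to 9.40 ± 0.833 CPM. The second row of cyp2k6 rose by 1.89, from 2.16 ± 0.891 to 8.03 ± 2.62 CPM. In contrast cyp3a65, an intestinal P450, was not called at 424 ± 119 CPM in wild type and 453 ± 106 CPM with 2-HD. Haem oxygenase hmox1a read 5.86, 9.03, 7.93, 3.96 and 10.16 CPM in wild type 3, 5, 10, 13 and 14, and 13.2, 16.3, 13.3, 15.9 and 12.2 CPM in 2-HD 1 to 5, without overlap. Among other genes linked to Nrf2, nfe2l2a rose by 0.51 and the efflux pump abcc2 by 1.02. The glutathione transferase gstp1 rose by 0.58, with its range of 178 to 384 CPM under treatment set by high values in 2-HD 3 and 5, while gclm, a subunit of the enzyme that starts glutathione synthesis, was not called (0.14, 95% interval -0.05 to 0.33). The transketolase tkta fell by 0.67.

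**Figure D2:**
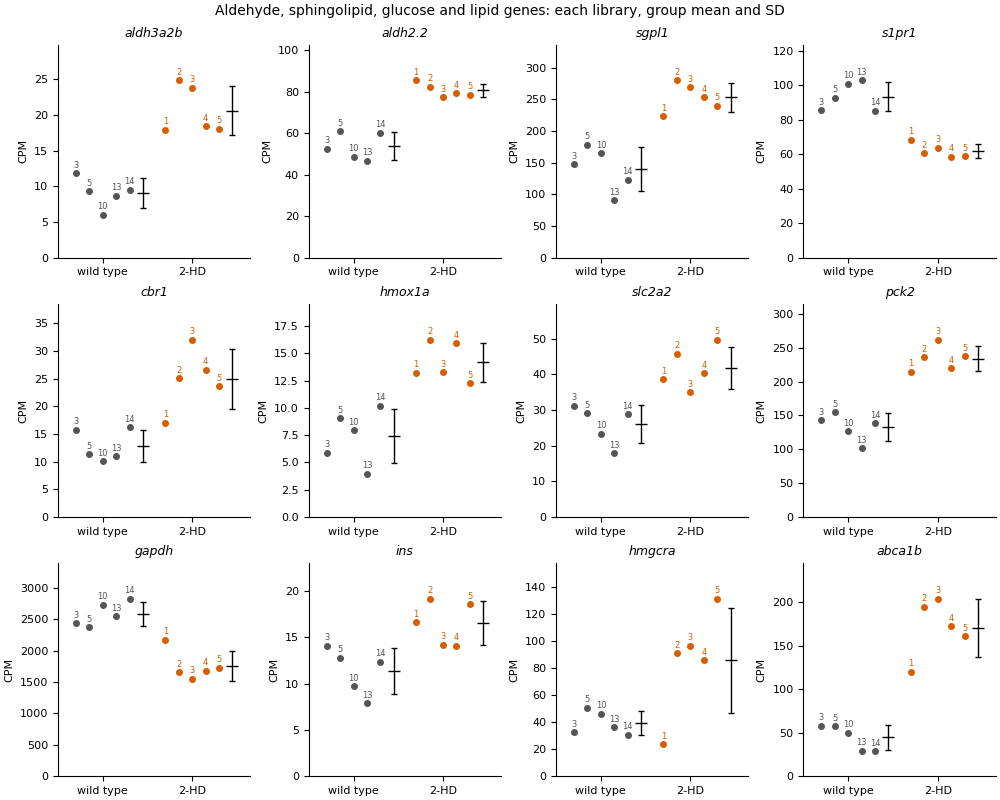
CPM of 12 genes of aldehyde, sphingolipid, glucose and lipid metabolism in each library (dots, numbered as in the labels), with the group mean and SD (black). The axes start at 0. The groups do not overlap except for hmgcra, in which 2-HD 1 lies below the wild types and the other treated libraries above them.

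Photoreceptor genes were lower with 2-HD. In the phototransduction list 22 of 29 (75.9%) members fell, 2 rose, and the median log2 fold change was -0.54. Cone transducin gnat2 read 1064, 1259, 1327, 1322 and 1049 CPM in wild type 3, 5, 10, 13 and 14, and 995, 859.5, 553, 862 and 597 CPM in 2-HD 1 to 5. No treated library reached the lowest control, and the log2 fold change was -0.64 (SE 0.16, adjusted p = 0.00452). The red-cone opsin opn1lw1 fell from 9.82 ± 2.74 to 4.39 ± 0.801 CPM and the ultraviolet-cone opsin opn1sw1 from 3477 ± 484 to 2399 ± 360.1 CPM. The rod phosphodiesterase subunit pde6a fell from 34.4 ± 4.59 to 22.7 ± 1.77 CPM. Its cone counterpart pde6c fell by 0.55 on the log2 scale. For opn1sw1 and pde6c the libraries of the groups overlapped. The transducin gamma subunits gngt1 of rods and gngt2a of cones fell by 0.92 and 1.01. The summed level of the list was 12882 to 16879.8 CPM in wild type and 8312 to 11269.8 CPM with 2-HD.

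Proteins that switch off the light response and sense calcium followed the same direction in 17 of 24 (70.8%) members. Cone arrestin arr3a fell from 363 ± 58.9 to 173 ± 94.0 CPM, although 2-HD 1, at 316 CPM, exceeded the lowest wild type at 272 CPM. Rod arrestin sagb fell by 0.94 and the recoverin rcvrn2 by 0.96, without overlap. The guanylate cyclase activator guca1a, which helps to restore cyclic GMP after a light response, moved against this group. It read 1.29, 4.84, 2.07, 3.12 and 4.101 CPM in wild type 3, 5, 10, 13 and 14, and 5.63, 12.3, 7.83, 13.2 and 9.07 CPM in 2-HD 1 to 5. It was higher in each treated library than in each control, by 1.64 on the log2 scale (SE 0.30, adjusted p = 0.000660), and was the 1 member that rose. Its relative guca1c is among the largest falls. Calls for grk7a and rcvrna, at -0.67 and -0.40, were each lost in 8 of the 10 fits without 1 library.

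Genes that build and specify photoreceptors fell in 21 of 34 (61.8%) cases. The homeobox gene six7, needed in zebrafish for green-cone opsins, read 50.04, 42.4, 64.2, 104 and 147 CPM in wild type 3, 5, 10, 13 and 14, and 31.5, 25.6, 27.5, 25.5 and 30.5 CPM in 2-HD 1 to 5. All treated values were lower than all controls, a fall of 1.53 on the log2 scale. The thyroid hormone receptor thrb, which specifies red cones, fell from 68.0 ± 6.45 to 38.0 ± 4.68 CPM, and the retinal homeobox gene rx2 from 19.4 ± 2.49 to 10.07 ± 2.05 CPM. The outer-segment disc protein prph2b fell by 0.79 and the photoreceptor master regulator crx by 0.53. Rod-specific nr2e3 read 17.8 ± 2.14 CPM in wild type and 17.96 ± 4.15 CPM with 2-HD and was not called, at 0.01 (95% interval -0.28 to 0.31). Prominin prom1b was not called either, at -0.21 (-0.51 to 0.08).

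In the retinoid cycle list 9 of 25 (36%) were lower and 4 (16%) higher, or 9 and 2 without wild type 14 and 2-HD 1. Under library totals alone both counts were 6. Interphotoreceptor carrier rbp3, which shuttles retinoids between photoreceptors and the pigment epithelium, read 342, 337, 386, 493 and 264 CPM in wild type 3, 5, 10, 13 and 14, and 144, 118, 83.5, 113 and 115 CPM in 2-HD 1 to 5. The drop was 3.17-fold (log2 -1.67, SE 0.17, adjusted p = 4.02e-05). The secreted retinal retinol carrier rbp4l, also called purpurin, fell from 82.4 ± 8.76 to 28.3 ± 14.96 CPM, and the cone retinol dehydrogenase rdh8b from 31.4 ± 5.33 to 11.2 ± 3.08 CPM. The outer-segment retinaldehyde transporter abca4a fell by 0.78. In contrast the retinoid isomerase rpe65a read 99.6 ± 35.5 CPM in wild type and 145 ± 39.2 CPM with 2-HD and was not called, and lrata, which esterifies retinol, rose from 6.21 ± 1.01 to 14.4 ± 4.13 CPM. Of the lens crystallins 8 of 39 (20.5%) fell, a share near the 19.7% of all genes. However, 0 rose, against 22.7% of all genes, and the median log2 fold change was -0.26. The summed level of the list was 11858 to 15484 CPM in wild type and 9497 to 11209 CPM with 2-HD, without overlap. The gamma M crystallins accounted for the falling genes named, such as crygm2d13 at 819.6 ± 46.8 to 571 ± 68.8 CPM. Their near-identical copies make their counts uncertain. Alpha crystallin cryaa and the lens water channel mipa were not called.

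**Figure D3:**
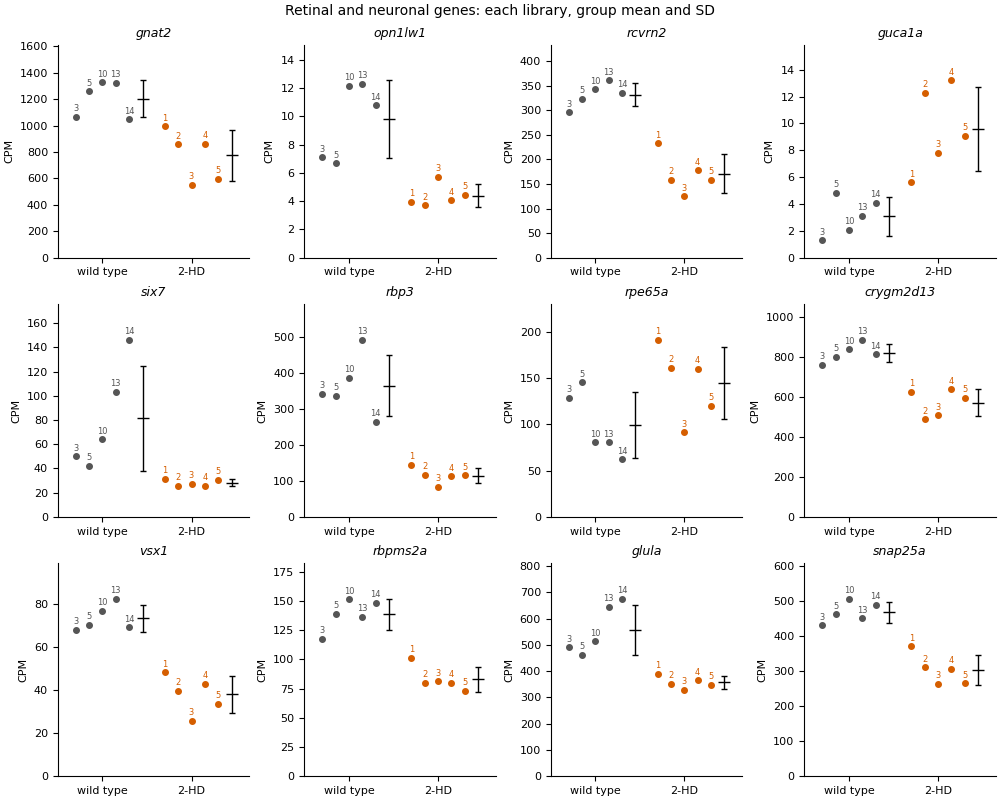
CPM of 12 genes of photoreceptors, the retinoid cycle, the lens, the inner retina and synapses in each library (dots, numbered as in the labels), with the group mean and SD (black). The axes start at 0. Treated libraries lie below all wild types in 10 panels, above them for guca1a, and among them for rpe65a.

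In the inner retina 23 of 32 (71.9%) members fell. Bipolar-cell factor vsx1 fell from 73.2 ± 6.13 to 37.9 ± 8.64 CPM, and trpm1a, the channel that transduces light signals in ON bipolar cells and is also expressed in melanophores, from 37.0 ± 4.60 to 21.4 ± 2.48 CPM. The horizontal-cell factor lhx1a read 81.0, 76.5, 75.4, 78.9 and 69.7 CPM in wild type 3, 5, 10, 13 and 14, and 47.4, 48.5, 43.6, 46.2 and 44.7 CPM in 2-HD 1 to 5. With a log2 fold change of -0.73 and little spread inside either group, it was among the 10 genes with the smallest adjusted p (3.76e-05). Ganglion-cell gene rbpms2a fell from 139 ± 13.3 to 83.1 ± 10.7 CPM and the ganglion-cell factor pou4f2 by 0.56. Genes used here for Müller glia were glutamine synthetase glula, which fell from 558 ± 96.4 to 357 ± 23.2 CPM, and rlbp1a, down by 0.53. Glial filament gfap, which rises in reactive Müller glia in other settings, fell from 269 ± 43.3 to 204 ± 9.20 CPM, with overlap. Whole larvae were read, so glia of the retina and of the brain cannot be told apart in these values.

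The 25 largest falls included the opsins opn6b and opn3, which are classed as non-visual. Expression of opn6b dropped from 22.2 ± 6.87 to 6.86 ± 3.22 CPM and that of opn3 from 10.33 ± 1.44 to 3.23 ± 1.198 CPM. On the log2 scale these falls were 1.70 and 1.68. The pineal opsin exorh fell from 8.23 ± 1.71 to 5.03 ± 0.607 CPM. A potassium channel subunit of photoreceptors, kcnv2b, and the photoreceptor clusterin clul1 fell by 1.63 and 1.61.

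Neuronal lists, whose genes are used in the brain as well as the retina, also held many lower members, with 29 of 39 (74.4%) synaptic genes, 34 of 49 (69.4%) channels and receptors and 36 of 46 (78.3%) cytoskeletal and axon genes. Synaptic fusion protein snap25a read 431, 463, 507, 451 and 490.3 CPM in wild type 3, 5, 10, 13 and 14, and 371, 311, 264, 306 and 265 CPM in 2-HD 1 to 5. The groups did not overlap, at a log2 fold change of -0.63 (SE 0.09). The vesicle calcium sensor syt1a fell by 0.68 and synaptophysin sypa by 0.53. Among receptors, the AMPA subunit gria4a fell from 43.3 ± 2.41 to 23.3 ± 3.33 CPM, the NMDA subunit grin1a from 334 ± 18.8 to 211 ± 21.0 CPM, and the glycine receptor glra1 from 75.1 ± 6.30 to 44.5 ± 4.44 CPM. The inhibitory-transmitter enzymes gad1b and gad2 fell by 0.68 and 0.69, and the glutamate transporter gene slc17a6b by 0.42. Pan-neuronal elavl3 and growth-cone gap43 fell by 0.42 and 0.49. An inhibitor of calcium/calmodulin kinase II, camk2n1a, had one of the 10 smallest adjusted p (3.76e-05) with a fall from 138 ± 13.2 to 70.5 ± 7.76 CPM.

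Progenitor and glial genes fell more often than they rose. Of 34 measured, 14 fell (41.2%) and 4 rose (11.8%), at a median log2 fold change of -0.13. Their summed level was 2530 to 2786 CPM in wild type and 2029 to 2209 CPM with 2-HD, without overlap. The eye and forebrain factors pax6a and pax6b fell by 0.75 and 0.69, and the astroglial glutamate transporter slc1a2b from 575 ± 61.4 to 378 ± 48.0 CPM. Stem-cell factor sox2 was not called, at -0.18 (-0.32 to -0.03), and sox9b rose by 0.62. In the myelin list 5 of 20 (25%) rose and 7 (35%) fell. These counts were 6 and 5 under library totals alone, and 5 and 10 without wild type 14 and 2-HD 1. Compact-myelin genes mbpa and mpz fell by 0.57 and 0.71, whereas cspg4, a marker of oligodendrocyte precursors and pericytes, rose from 5.17 ± 0.926 to 11.6 ± 1.33 CPM. Neuropeptide genes fell in 17 of 34 (50%) cases. The appetite peptide npy fell from 8.37 ± 1.58 to 3.31 ± 0.635 CPM and the pituitary adenylate cyclase activator adcyap1b from 106 ± 7.82 to 65.3 ± 10.08 CPM. Another appetite gene, agrp, at 1.29 ± 0.153 CPM in wild type and 1.34 ± 0.366 CPM with 2-HD, was not called.

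Core clock genes fell in 18 of 36 (50%) cases and rose in 2. These counts were 17 and 5 without wild type 14 and 2-HD 1, and 17 and 7 under library totals alone. The list of clock output PAR bZIP and NFIL3 factors was mixed, with 7 of 19 (36.8%) lower and 4 (21.1%) higher. Its median log2 fold change was 0.07, and its summed level overlapped between groups. Its member tefa rose, by 0.32 to 0.46 over the 10 fits without 1 library. The clock is a transcriptional loop in which CLOCK and BMAL drive PER, CRY, ROR and REV-ERB genes, so that each has its own time of day. Repressor per1b read 172, 136, 149, 198 and 235 CPM in wild type 3, 5, 10, 13 and 14, and 135, 90.1, 82.3, 76.7 and 44.6 CPM in 2-HD 1 to 5, and 2-HD 5 was the lowest and wild type 14 the highest. It fell by 1.05 (SE 0.23). The REV-ERB gene nr1d4a moved the other way, from 7.10 ± 1.85 to 22.8 ± 6.11 CPM, without overlap. Light-responsive per2 was not called at 0.31 (-0.73 to 1.36), and its wild types alone spanned 13.5 to 112 CPM. Neither clocka nor cry1a was called, at -0.41 and -0.31.

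Several of the largest falls in this system rested on untreated libraries that differed widely among themselves. For rorcb the wild types spanned 16.5 to 103 CPM and the treated libraries 8.08 to 13.6 CPM. For the PAR bZIP repressor nfil3-5 the ranges were 42.6 to 177 CPM in wild type and 26.5 to 32.7 CPM with 2-HD. Its level in wild type 3 and 5 was nearest to the treated libraries and that in wild type 13 and 14 farthest. The glucocorticoid-induced chaperone fkbp5 had the same layout among controls, read at 90.4, 92.4, 168, 351 and 262 CPM in wild type 3, 5, 10, 13 and 14, and 93.8, 114, 132, 124 and 132 CPM in 2-HD 1 to 5, and was not called (adjusted p = 0.126). Leucine-zipper gene tsc22d3, another glucocorticoid target, fell from 145 ± 31.6 to 89.2 ± 8.72 CPM. The labels give no sampling time, so its part in these results was not tested.

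Immediate early genes, which neurons switch on within minutes of firing, fell in 28 of 43 (65.1%) cases at a median of -0.73. Their summed level was 1901 to 3061 CPM in wild type and 1146 to 2174 CPM with 2-HD, and the groups overlapped. Whole larvae were read, so these falls cannot be placed in neurons. The falls were 37 without wild type 14 and 2-HD 1 and ranged from 20 to 34 over the 10 fits without 1 library. The neuronal activity factor npas4a fell from 91.9 ± 43.2 to 45.3 ± 17.99 CPM, with overlap. The early response gene ier5 read 90.2, 93.5, 109, 124 and 122 CPM in wild type 3, 5, 10, 13 and 14, and 79.3, 58.6, 61.1, 65.3 and 62.2 CPM in 2-HD 1 to 5, without overlap. The orphan receptor nr4a2a fell by 0.67. The calls of fosab, junba and egr1, at -0.99, -0.80 and -0.71, were lost in 5, 4 and 3 of the 10 fits without 1 library. A feedback phosphatase of the same pathway, dusp6, was not called at -0.18 (-0.41 to 0.05).

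Pituitary and cortisol genes split evenly, 5 higher and 5 lower of 20 (25% each), near the 22.7% and 19.7% of all genes. The lower genes were 3 under library totals alone and without wild type 13, 2-HD 3 or 2-HD 5. The cortisol-synthesising enzyme cyp11c1 read 6.18, 10.5, 6.59, 7.75 and 5.198 CPM in wild type 3, 5, 10, 13 and 14, and 13.1, 17.5, 17.7, 19.8 and 14.4 CPM in 2-HD 1 to 5. It was higher in each treated library, at a log2 fold change of 1.19. Growth hormone gh1 rose from 1.16 ± 0.840 to 4.06 ± 1.604 CPM, with overlap. The hormone precursor pomca was read at 0.116 to 0.391 CPM in wild type and 0.698 to 1.72 CPM with 2-HD, near the limit of 0.148 to 0.173 CPM that a count of 0 allows.

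**Figure D4:**
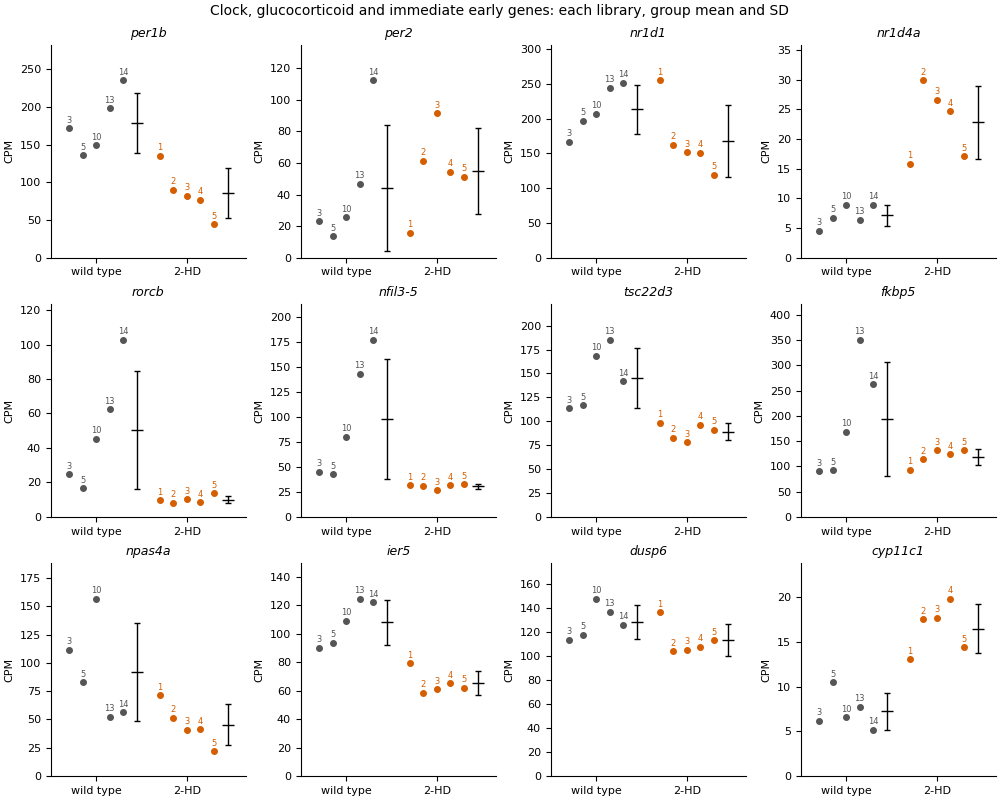
CPM of 12 clock, glucocorticoid-axis and immediate early genes in each library (dots, numbered as in the labels), with the group mean and SD (black). The axes start at 0. Wild types spread widely for per2, rorcb, nfil3-5 and fkbp5, while treated libraries lie close together for rorcb, nfil3-5 and tsc22d3.

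Glucose handling is the concern of diabetic retinopathy, and here 13 of 19 (68.4%) glucose transporter genes rose. The liver and islet transporter slc2a2 read 31.2, 29.1, 23.3, 17.8 and 28.8 CPM in wild type 3, 5, 10, 13 and 14, and 38.6, 45.7, 34.9, 40.3 and 49.7 CPM in 2-HD 1 to 5, without overlap (log2 fold change 0.68, SE 0.15, adjusted p = 0.00195). The intestinal sodium-glucose transporter slc5a1 rose from 37.4 ± 5.42 to 71.5 ± 18.3 CPM. Of the copies of GLUT1, slc2a1b rose from 16.0 ± 1.96 to 27.9 ± 2.69 CPM and slc2a1a was not called, at -0.24 (-0.87 to 0.39). The fish-specific transporter slc2a11b, known from pigment cells of medaka, rose by 1.22, and slc2a15a by 1.16.

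Glycolytic genes moved down in 24 of 54 (44.4%) cases and up in 7, or 20 and 11 under library totals alone. Those that fell included isoforms abundant in muscle and nerve, with gapdh falling from 2583 ± 192 to 1757 ± 242 CPM, pyruvate kinase pkmb from 842 ± 112 to 527 ± 52.6 CPM and muscle phosphoglycerate mutase pgam2 from 109 ± 11.4 to 67.3 ± 4.98 CPM. Aldolase aldoab and triosephosphate isomerase tpi1b fell by 0.41 and 0.42. Hexokinase hk1 rose by 0.26, and lactate dehydrogenase ldha was not called at -0.18 (-0.38 to 0.03).

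Of the gluconeogenic and glycogen genes 12 of 39 (30.8%) rose and 9 (23.1%) fell, or 17 and 6 under library totals alone. Mitochondrial pck2 rose from 133 ± 20.1 to 234 ± 18.7 CPM, and the glucose-6-phosphate carrier slc37a4a, needed for glucose release, from 28.0 ± 5.44 to 50.9 ± 4.42 CPM. Cytosolic pck1 and fbp1b, which catalyse controlled steps of gluconeogenesis, read 397 ± 50.7 CPM in wild type and 474 ± 55.4 CPM with 2-HD and 106 ± 17.1 CPM in wild type and 124 ± 13.1 CPM with 2-HD, and neither was called. The liver glycogen enzymes gys2 and gbe1b rose by 0.61 and 0.76, and the glycogen-targeting phosphatase subunit ppp1r3cb fell from 74.6 ± 10.6 to 39.9 ± 0.945 CPM.

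Insulin and IGF genes numbered 12 higher (26.7%) and 16 lower (35.6%) of 45, against 22.7% and 19.7% of all genes. Under library totals alone there were 13 each. Insulin, ins, read 14.1, 12.8, 9.72, 7.86 and 12.4 CPM in wild type 3, 5, 10, 13 and 14, and 16.6, 19.2, 14.2, 14.1 and 18.6 CPM in 2-HD 1 to 5. The treated libraries lay above the controls by a small margin (log2 fold change 0.54, adjusted p = 0.0204), and the call was lost without wild type 10, wild type 13 or 2-HD 2. The binding protein igfbp1a, which is suppressed by insulin in the liver of mammals, fell from 39.8 ± 14.6 to 19.96 ± 5.58 CPM. Transcription factor foxo3a fell by 0.69 and igfbp5a rose by 1.14. In the endocrine pancreas list 15 of 30 (50%) fell, led by granins shared with neurons such as chgb, down from 62.9 ± 8.97 to 29.0 ± 6.04 CPM, and by the potassium-channel subunit abcc8, down by 0.59. Glucagon gcga, at 4.15 ± 0.976 CPM in wild type and 4.89 ± 0.476 CPM with 2-HD, and the islet factor pdx1, at 5.14 ± 0.674 CPM in wild type and 5.29 ± 1.11 CPM with 2-HD, were not called.

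Cholesterol synthesis rose in 14 of 28 (50%) genes and in 18 without wild type 14 and 2-HD 1, while 2 fell. The rises ranged from 10 to 19 over the 10 fits without 1 library and were 9 with limma voom. The rate-limiting reductase hmgcra read 32.5, 50.4, 46.1, 36.1 and 30.6 CPM in wild type 3, 5, 10, 13 and 14, and 23.4, 91.1, 96.6, 85.8 and 131 CPM in 2-HD 1 to 5. The library 2-HD 1 lay below every control and the other 4 treated libraries above all of them, with a log2 fold change of 1.13 over all 5. The late-pathway gene sc5d rose from 4.50 ± 0.719 to 12.6 ± 4.42 CPM, without overlap. The LDL receptor ldlra, regulated by the same sterol sensor, was not called at 0.08 (-0.22 to 0.37). Fatty acid oxidation and peroxisome genes rose in 21 of 40 (52.5%) cases, and in 25 without wild type 14 and 2-HD 1, with cpt2, which re-forms acyl-CoA inside mitochondria, up from 24.6 ± 1.90 to 34.6 ± 2.43 CPM. The gate of mitochondrial entry cpt1ab was not called at 0.28 (0.04 to 0.51). In fatty acid synthesis 15 of 35 (42.9%) rose and 5 (14.3%) fell. The falling genes were 3 without 2-HD 3 or 2-HD 4, 2 without 2-HD 5 and under library totals alone, and 8 with DESeq2. The acyl-CoA synthetase acsl3a rose by 1.35 and the desaturase scdb fell by 0.59.

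Of the apolipoprotein and lipoprotein assembly genes 15 of 36 (41.7%) rose and 2 fell, at a median log2 fold change of 0.31. The falling genes were 5 without 2-HD 1 and 4 without wild type 14 and 2-HD 1. The cholesterol efflux pump abca1b read 57.7, 57.4, 50.2, 29.2 and 28.6 CPM in wild type 3, 5, 10, 13 and 14, and 120.3, 195, 204, 172 and 161 CPM in 2-HD 1 to 5, well separated, with a log2 fold change of 1.93. Apolipoprotein B gene apobb.1 rose from 1240.0 ± 302 to 2468 ± 309.9 CPM, and mttp, which loads lipid onto it, from 59.8 ± 12.9 to 96.9 ± 6.18 CPM. The neuronal receptor vldlr fell by 0.41, and apoa1a was not called at 0.12 (-0.15 to 0.39). Liver-secreted proteins rose in 47 of 64 (73.4%) cases, the median being 0.70. Prothrombin f2 rose from 58.0 ± 15.4 to 124 ± 12.7 CPM, complement c3a.1 from 97.2 ± 38.8 to 202 ± 39.7 CPM, fibrinogen fgb from 86.0 ± 15.4 to 141 ± 15.8 CPM and the alpha-2-macroglobulin gene a2ml from 46.7 ± 16.5 to 149.8 ± 26.3 CPM. The standard hepatocyte marker fabp10a read 431, 429.9, 505, 277 and 453 CPM in wild type 3, 5, 10, 13 and 14, and 606, 489, 460.2, 566 and 543 CPM in 2-HD 1 to 5. Its groups overlapped and it was not called (log2 fold change 0.35, 95% interval 0.01 to 0.69).

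Enterocyte genes rose in 33 of 47 (70.21%) cases. The peptide transporter slc15a1b rose from 89.4 ± 30.7 to 180.0 ± 18.6 CPM, the aminopeptidase anpepb from 162 ± 34.8 to 309 ± 29.6 CPM and the row named lct from 15.3 ± 5.81 to 44.0 ± 3.08 CPM. The gut fatty acid carriers fabp2 and fabp6 were not called, at -0.03 and 0.11. In the exocrine pancreas the edgeR test called 0 of 26 genes. At an unadjusted p under 0.05 there was 1, lower with 2-HD, and DESeq2 and limma voom called 0. Their summed level ranged from 2119.6 to 4954 CPM among controls and from 2446 to 5338 CPM with 2-HD, and the groups overlapped.

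The collagen list had the largest share of rising members of the 68 lists. Collagens rose in 40 of 50 (80%) cases and collagen processing genes in 30 of 40 (75%), the latter 26 without wild type 14 and 2-HD 1. The bone and skin collagen col1a1a rose from 1281 ± 152 to 2438 ± 308 CPM, basement membrane col4a1 from 19.7 ± 5.71 to 45.4 ± 5.06 CPM and col18a1a from 111 ± 14.9 to 202 ± 17.9 CPM. The collagen chaperone serpinh1b read 44.8, 50.3, 26.9, 12.5 and 10.7 CPM in wild type 3, 5, 10, 13 and 14, and 70.9, 85.8, 107, 82.7 and 84.8 CPM in 2-HD 1 to 5. Prolyl hydroxylase p4ha1b and the prolyl isomerase fkbp10b rose from 8.02 ± 1.54 to 17.8 ± 4.302 CPM and from 7.01 ± 0.752 to 15.2 ± 1.32 CPM, and sec24d, a coat protein for collagen export, by 1.04. The crosslinking enzyme loxl2b rose by 0.88 while loxl3b was not called (0.12, -0.07 to 0.31). Proteoglycan and elastic fibre genes rose in 36 of 53 (67.9%) cases, among them decorin dcn by 0.40 and fbln1 by 1.51. Proteases took a smaller share, 14 of 32 (43.8%) rising. The membrane protease mmp14b rose by 0.64 and its inhibitor reck by 0.92, and the inflammatory mmp9 was not called at 5.47 ± 3.89 CPM in wild type and 4.88 ± 0.980 CPM with 2-HD.

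Genes of the larval fin rose. Actinotrichia are the collagen-like fibres that stiffen the larval fin, and their structural genes and1, and2 and and3 rose from 52.8 ± 9.31 to 189 ± 64.1 CPM, from 70.29 ± 19.8 to 281 ± 84.5 CPM and from 11.9 ± 4.36 to 50.7 ± 13.7 CPM. For and2 the libraries read 89.9, 89.7, 70.4, 45.9 and 55.6 CPM in wild type 3, 5, 10, 13 and 14, and 357, 258, 256, 371 and 164 CPM in 2-HD 1 to 5. Its lowest treated library stood at 164 CPM against a highest control of 89.9 CPM. Basement membrane gene fras1 of the Fraser complex rose by 0.86. Of the fin fold list 22 of 35 (62.9%) rose, or 17 without wild type 14 and 2-HD 1, and the homeobox gene evx2 fell by 0.66. In cartilage and bone 24 of 40 (60%) rose, or 18 without wild type 14 and 2-HD 1, with osteoblast factor sp7 up from 1.05 ± 0.303 to 2.302 ± 0.377 CPM and the cartilage protein matn1 from 44.0 ± 9.32 to 83.4 ± 22.9 CPM, while the cartilage master factor sox9a rose by 0.33.

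In the skin 3 of 23 measured keratins rose and 2 fell, both shares under those of all genes. However, 4 fell without 2-HD 1 and 7 without wild type 14 and 2-HD 1, and in the latter fit the share that fell exceeded that of all genes. Abundant krt4 and krt5 read 9910.3 ± 677 CPM in wild type and 9037 ± 1529.5 CPM with 2-HD and 3426 ± 459.6 CPM in wild type and 3566 ± 288 CPM with 2-HD, and neither was called. Junction, claudin and barrier genes rose in 35 of 55 (63.6%) cases. The barrier factor grhl3 rose from 6.63 ± 1.58 to 15.5 ± 1.26 CPM, periplakin ppl from 135 ± 20.3 to 255 ± 41.5 CPM, claudin cldn23a from 14.01 ± 2.73 to 30.0 ± 4.91 CPM and the basal keratinocyte factor tp63 from 23.6 ± 4.21 to 32.7 ± 3.33 CPM. Ionocytes, the skin cells that take up salt and calcium from the water, had 24 of 32 (75%) genes higher. Calcium channel trpv6 read 4.25, 2.503, 2.401, 2.06 and 2.02 CPM in wild type 3, 5, 10, 13 and 14, and 6.76, 8.18, 11.2, 9.14 and 15.4 CPM in 2-HD 1 to 5, without overlap. The sodium-chloride cotransporter slc12a10.2 rose from 12.5 ± 2.54 to 35.5 ± 7.28 CPM, the anion exchanger slc4a1b from 2.37 ± 1.06 to 9.57 ± 2.11 CPM, and the ionocyte factor foxi3b from 6.53 ± 1.57 to 12.4 ± 1.11 CPM.

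Of the heart list 22 of 32 (68.8%) rose. These included atrial myosin myh6 from 1.29 ± 0.240 to 3.29 ± 0.581 CPM and cardiac troponin tnnt2a from 5.07 ± 1.42 to 9.29 ± 1.39 CPM. The summed level of the heart list did not rise with them. It was 4074 to 4880 CPM in wild type and 3789 to 4661 CPM with 2-HD, and the groups overlapped. In skeletal muscle 26 of 72 (36.1%) fell and 15 (20.8%) rose, 20 and 19 under library totals alone. The abundant fast-fibre genes fell, with muscle actin actc1b at 25374, 22188, 24334, 24501 and 20096 CPM in wild type 3, 5, 10, 13 and 14, and 17769, 14349, 13040.1, 13419.7 and 12808 CPM in 2-HD 1 to 5. Its highest treated library, 2-HD 1, lay below the lowest control. Parvalbumin pvalb1 fell from 12241 ± 591 to 8161 ± 524 CPM and the light chain mylz3 from 7208 ± 515 to 4609 ± 575 CPM. Slow-fibre myosin smyhc1 rose from 479.7 ± 65.2 to 804 ± 122 CPM and myoglobin mb from 52.96 ± 10.9 to 89.8 ± 24.7 CPM.

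Endothelial genes, those of the cells marked by the transgene, showed no common direction. Of 55 measured 8 rose and 9 fell, each share under that of all genes, with 11 and 5 under library totals alone. The rising genes were 5 without wild type 13, 2-HD 1 or 2-HD 3 and with RLE size factors. VE-cadherin cdh5 was not called at 34.4 ± 3.29 CPM in wild type and 29.5 ± 3.86 CPM with 2-HD (-0.22, 95% interval -0.42 to -0.01). The VEGF receptor kdrl rose by 0.31, a call lost in 7 of the 10 fits without 1 library, and its ligand vegfaa was not called at -0.29 (-0.58 to 0.01). The guidance receptor robo4 fell from 28.2 ± 2.81 to 18.7 ± 2.53 CPM and the tip-cell ligand apln from 134 ± 8.38 to 95.9 ± 10.5 CPM, both without overlap. Mural cell genes rose in 17 of 39 (43.6%) cases, with foxc1b up by 0.71 and notch2 by 0.69, but their usual markers pdgfrb, acta2 and tagln were not called, at 0.10, 0.00 and -0.14. In the hypoxia list 7 of 33 (21.2%) rose, near the share of all genes, and 10 (30.3%) fell. Under library totals alone these counts were 9 and 6. Without 2-HD 3 the rising genes were 4, and without 2-HD 2 or 2-HD 4 the falling genes were 6. The oxygen-sensing hydroxylase egln3 rose from 2.86 ± 0.584 to 7.26 ± 1.94 CPM and the hypoxia-inducible factor gene epas1a from 64.3 ± 15.8 to 130.0 ± 21.8 CPM, whereas hif1ab was not called at 0.02 (-0.10 to 0.13).

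Red cell genes rose in 29 of 43 (67.4%) cases, and in 24 without wild type 14 and 2-HD 1. The first enzyme of haem synthesis in red cells, alas2, read 32.0, 22.5, 21.1, 13.99 and 18.7 CPM in wild type 3, 5, 10, 13 and 14, and 50.2, 53.9, 43.0, 54.8 and 38.9 CPM in 2-HD 1 to 5, without overlap. Transferrin receptor tfr1a rose from 11.8 ± 4.09 to 30.5 ± 3.93 CPM and the erythroid factor gata1a from 1.52 ± 0.270 to 2.98 ± 0.714 CPM. Among globins 6 of 12 rose, and 3 without wild type 14 and 2-HD 1 or without wild type 13, 2-HD 1 or 2-HD 4 alone. Embryonic hbae3 rose from 155 ± 29.6 to 293 ± 93.7 CPM, hbbe1.1 was not called at 181 ± 52.2 CPM in wild type and 239.9 ± 54.7 CPM with 2-HD, and the neural globins ngb and cygb2 fell by 0.66 and 0.87. Leukocyte genes rose in 12 of 54 (22.2%) cases, close to the share of all genes, and in 18 under library totals alone. Of the 54, 0 fell, against 19.7% of all genes, and 0 to 3 fell over the fits without 1 library. Neutrophil peroxidase mpx rose from 4.35 ± 0.558 to 6.47 ± 1.39 CPM, and neutrophil and macrophage lysozyme lyz was not called at 2.29 ± 0.396 CPM in wild type and 2.199 ± 0.527 CPM with 2-HD. Of the inflammation and interferon genes 11 of 46 (23.9%) rose, near the share of all genes, and 5 (10.9%) fell. Under library totals alone these counts were 14 and 2. Over the 10 fits without 1 library the rises ranged from 5 to 13, at 7 or fewer without wild type 5, 10 or 14 or 2-HD 3 or 5. The falls ranged from 1 to 5, at 2 or fewer without wild type 13 or any of 2-HD 2 to 5. The classical cytokines il1b and cxcl8a were not called, at 1.19 ± 0.835 CPM in wild type and 0.819 ± 0.304 CPM with 2-HD and 0.750 ± 0.315 CPM in wild type and 1.03 ± 0.299 CPM with 2-HD. The inflammasome caspase caspb had one of the 25 largest rises, from 14.9 ± 5.58 to 60.4 ± 28.0 CPM. Its treated values ran from 23.5 to 93.0 CPM, highest in 2-HD 3 and 5.

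Pigment genes rose in 8 of 19 (42.1%) melanophore and 13 of 32 (40.6%) iridophore and xanthophore cases. Tyrosinase tyr rose from 35.4 ± 5.19 to 55.8 ± 7.76 CPM and the melanosome exchanger slc24a5 from 5.63 ± 0.612 to 11.1 ± 1.99 CPM, and the melanosome fibre gene pmela was not called at 254 ± 17.9 CPM in wild type and 261 ± 29.6 CPM with 2-HD. Pteridine enzyme gch2 rose from 67.8 ± 24.8 to 117 ± 13.4 CPM, and the purine enzyme pnp4a of iridophores was not called at 15.3 ± 3.17 CPM in wild type and 15.6 ± 5.001 CPM with 2-HD.

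With TMM scaling, cytosolic ribosomal proteins were the list with the highest share of falling genes, 69 of 82 (84.1%), at a median log2 fold change of -0.30. Under library totals alone 48 fell and 1 rose, and 78 fell without wild type 14 and 2-HD 1. Ribosomal protein rpl38 read 286, 347, 344, 419 and 318 CPM in wild type 3, 5, 10, 13 and 14, and 242, 227, 219, 261 and 228 CPM in 2-HD 1 to 5, without overlap. Most falls were smaller, as for rpsa from 2757 ± 307 to 2341 ± 68.9 CPM, a call lost under library totals alone, and rplp0 and rps6 were not called. Mitochondrial ribosomal proteins were mostly not called, with 7 of 73 (9.59%) higher, a count that ran from 0 (without wild type 14 or 2-HD 5) to 12 (without wild type 5) over the fits without 1 library and was 16 under library totals alone. Elongation factor eef1a1l1, at 9449 ± 721 CPM in wild type and 9609 ± 477 CPM with 2-HD, was not called. Translation factors numbered 9 higher and 9 lower of 57 (15.8% each), or 18 and 5 under library totals alone. Nuclear genes of the respiratory chain were mostly not called, 13 of 84 (15.5%) falling and 4 (4.76%) rising, and 6 each under library totals alone. The hypoxia-linked and tissue-specific subunits cox4i2 and cox7a1 fell by 0.86 and 0.61, and atp5f1b was not called (0.06, -0.08 to 0.19). Of the 13 protein genes of the mitochondrial genome, mt-co2 fell from 5171 ± 614 to 3906 ± 223 CPM, and mt-co1, mt-cyb and mt-nd1 were not called. Each direction held 2 calls, and under library totals alone 3 were higher and 2 lower. With RLE size factors and with DESeq2 0 were higher and 3 lower. The higher calls ran from 0 to 3 over the fits without 1 library, and 4 were lower without 2-HD 3. The higher genes mt-atp8 and mt-nd5 kept their calls in 3 and 2 of these 10 fits. Both calls were lost without wild type 3, 5, 10 or 13 or 2-HD 2, 3 or 5, and that of mt-nd5 also without 2-HD 4.

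Secretory pathway genes rose in 32 of 56 (57.1%) cases. The chaperone hspa5, the main indicator of endoplasmic reticulum load, read 183, 220.4, 124, 188 and 125 CPM in wild type 3, 5, 10, 13 and 14, and 165, 335, 343, 293 and 335 CPM in 2-HD 1 to 5. The library 2-HD 1 lay among the controls and the other 4 above them. Of the branch factors, xbp1 was not called, at 0.19, and ddit3 fell, at -0.26, with a call lost in 7 of the 10 fits without 1 library. Heat shock and chaperone genes rose in 20 of 53 (37.7%) cases. The small heat shock gene hspb1 read 16.2, 14.96, 14.5, 17.1 and 19.9 CPM in wild type 3, 5, 10, 13 and 14, and 20.7, 38.2, 70.14, 35.9 and 131 CPM in 2-HD 1 to 5, every treated library above every control but over a wide range. Inducible hsp70l rose from 4.79 ± 2.12 to 11.4 ± 1.77 CPM. Proteasome genes rose in 22 of 48 (45.8%) cases, in 30 without wild type 14 and 2-HD 1 and in 35 under library totals alone. Their rises ranged from 16 to 33 over the 10 fits without 1 library. The subunit psmd2 rose from 32.6 ± 4.07 to 52.96 ± 7.72 CPM. The activator psme4a fell from 39.4 ± 10.8 to 18.5 ± 3.27 CPM. Genes of the ATF4 pathway numbered 11 higher and 11 lower of 41 (26.8% each), against 22.7% and 19.7% of all genes. Under library totals alone these counts were 14 and 9, and 17 were higher without 2-HD 1. Asparagine synthetase asns rose by 0.62 and phgdh, at 0.17 (-0.09 to 0.43), was not called. Lysosomal genes numbered 18 higher (31.6%) and 14 lower (24.6%) of 57. These counts were 16 each with RLE size factors, and 23 and 7 under library totals alone. The proton pump subunit atp6v0cb, abundant in neurons, fell by 0.54.

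Of 65 replication and cycle genes 17 rose (26.2%), near the 22.7% of all genes. Only 1 fell (1.54%), against 19.7% of all genes. Under library totals alone 26 rose. Their rises ranged from 12 to 24 over the 10 fits without 1 library. The helicase subunits mcm4 and mcm5 rose by 0.43 and 0.46, cyclin ccnd2a rose from 9.25 ± 1.68 to 21.8 ± 1.44 CPM as one of the 10 smallest adjusted p, and pcna and ccnb1 were not called. The damage response and apoptosis list held 11 higher (26.2%) and 10 lower (23.8%) of 42, near the shares of all genes. These counts were 11 each with RLE size factors, and 16 and 8 under library totals alone. Cell cycle inhibitor cdkn1a read 23.0, 26.99, 18.5, 22.7 and 14.4 CPM in wild type 3, 5, 10, 13 and 14, and 37.7, 52.0, 67.6, 52.5 and 60.2 CPM in 2-HD 1 to 5, without overlap. The ubiquitin ligase mdm2 was not called, at 33.4 ± 3.91 CPM in wild type and 43.2 ± 13.9 CPM with 2-HD. Among signalling genes 34 of 104 (32.7%) rose, and 25 without wild type 14 and 2-HD 1, while 11 (10.6%) fell. Those that rose included wnt5b, from 4.78 ± 1.44 to 13.1 ± 1.71 CPM, and tgfb2, from 3.91 ± 0.200 to 6.93 ± 0.807 CPM. The pathway readouts axin2, dusp6 and id1 were not called, at 0.09, -0.18 and -0.09. In contrast the FGF feedback gene spry4 and the phosphatase gene dusp5 fell. Over the 10 fits without 1 library they lay at -0.75 to -0.57 and -2.06 to -1.75. Retinoic acid genes rose in 17 of 33 (51.5%) cases and fell in 6 (18.2%), or 13 and 8 without wild type 14 and 2-HD 1. Beside aldh1a2, the receptor gene rarga rose by 0.46. Another receptor gene, raraa, fell, at -0.62 to -0.54 over the 10 fits without 1 library. The breakdown gene cyp26a1, itself induced by retinoic acid, fell from 9.49 ± 1.41 to 5.89 ± 1.203 CPM.

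Some of the 25 largest rises and 25 largest falls belong to none of the groups above. The thyroid and pharynx factor foxe1 rose from 1.06 ± 0.550 to 4.28 ± 0.640 CPM, the otolith matrix gene otomp from 5.17 ± 1.81 to 20.3 ± 5.64 CPM, the gamma-glutamyltransferase ggt1b from 6.73 ± 3.28 to 28.8 ± 11.998 CPM and the adhesion gene nectin4b from 1.85 ± 0.404 to 6.87 ± 1.03 CPM. Uncoupling protein ucp3 fell from 71.3 ± 36.0 to 23.4 ± 6.31 CPM, and the dopamine D4 receptor gene drd4b from 2.88 ± 1.74 to 0.945 ± 0.225 CPM. The linker histone histh1l was lower in every treated library, read at 593, 579, 553, 1048 and 565 CPM in wild type 3, 5, 10, 13 and 14, and 197, 216, 222, 240.3 and 203 CPM in 2-HD 1 to 5. Histone copies share sequence, so its count is uncertain. The 25 rises had log2 fold changes of 1.89 to 3.42, and the 25 falls had sizes of 1.49 to 2.80.

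Treated libraries differed among themselves in a way that touched many of these results. For 4866 of the 9398 called genes (51.8%) 2-HD 1 was the treated library nearest to the wild-type mean, and 2-HD 3 and 2-HD 5 were the farthest for 31.3% and 29.4%. The summed level of 39 of the 68 lists did not overlap between groups, 22 above and 17 below, and 2-HD 1 was the nearest in 21 of the 39. In photoreceptor shutoff genes the summed level was 1736, 2274, 2133, 2313 and 2358 CPM in wild type 3, 5, 10, 13 and 14, and 1794, 1403, 916, 1464 and 1017 CPM in 2-HD 1 to 5. In cholesterol synthesis it was 445, 601, 526, 542 and 576 CPM in wild type 3, 5, 10, 13 and 14, and 456, 807, 861, 745 and 1015 CPM in 2-HD 1 to 5. For the liver-secreted proteins it was 5677, 4550.1, 4455, 3991 and 5734 CPM in wild type 3, 5, 10, 13 and 14, and 7320.0, 8356, 7577, 8026 and 8682 CPM in 2-HD 1 to 5, and every treated library exceeded the controls. Fin fold and collagen lists had 2-HD 5 as the lowest treated library, and collagen sums ran from 10964 to 13047 CPM with 2-HD against 7683 to 9468 CPM in controls. Fits without 2-HD 1 called 9968 genes and those without 2-HD 3 called 8120.

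**Figure D5:**
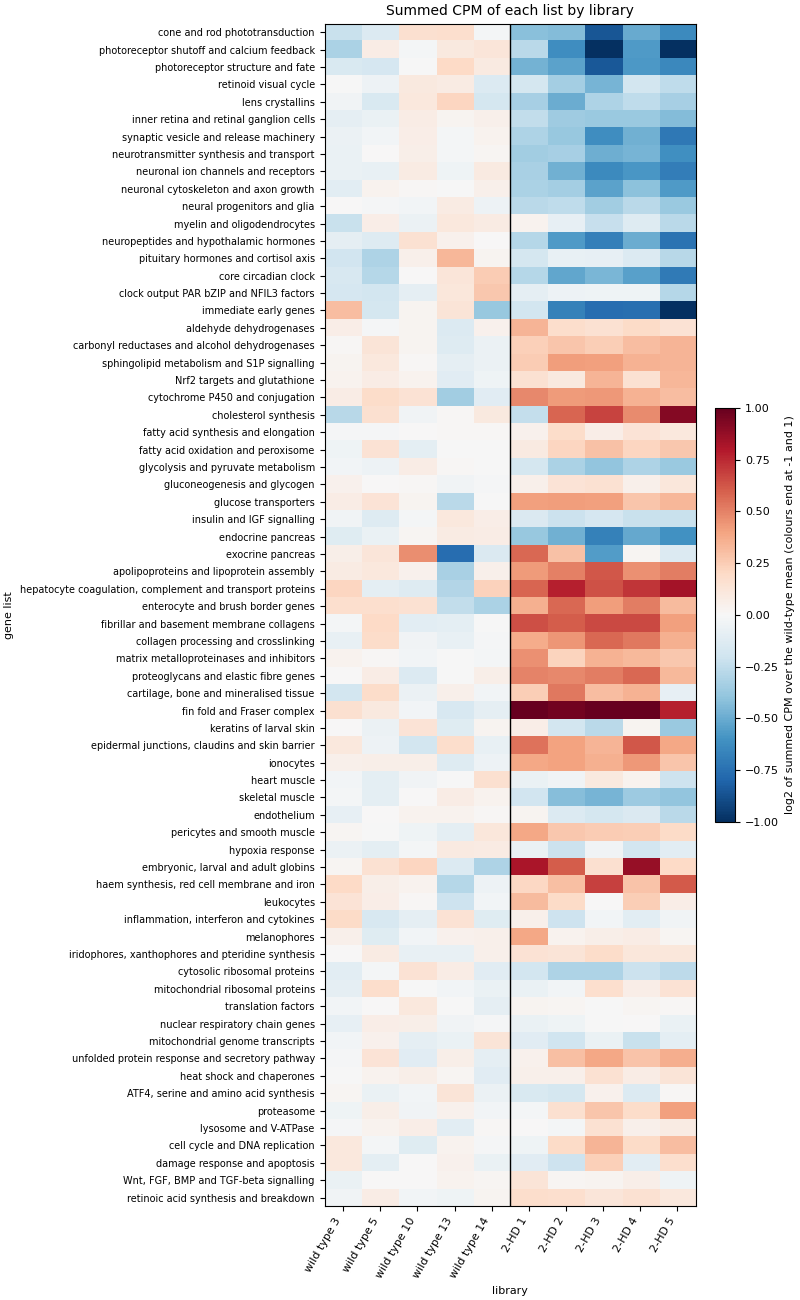
Summed CPM of each list in each library as log2 over the wild-type mean, red above and blue below, with colours ending at -1 and 1. Right of the black line between groups, most eye and brain lists are blue. Most matrix lists and the liver and fin fold lists are red there. The immediate early and photoreceptor shutoff lists are also blue there, but their groups overlap. Wild type 14 in the first and wild type 3 in the second are bluer than 2-HD 1. Treated library 2-HD 1 is paler in most eye and brain lists.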

How the data were processed

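The authors deposited 1 table of raw counts, with whole numbers of reads for each gene and no normalization. Per the labels' protocols, RNA of larvae was extracted with TRIzol and sequenced on a BGISEQ-500. The submitters' processing notes name featureCounts 2.0.1, HISAT2 2.2.1 and Trim Galore 0.6.7, and genome build GRCz11. The annotation, strand setting and treatment of multiply mapped reads are not given in the sources used here, so paralogues and overlapping genes are uncertain. Rows that share a symbol were kept apart, and a later one is called the second row. A list member was taken from the row with the highest mean count. Every row carried a name, and the table held 0 sample columns without a label.

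Counts were fitted with edgeR 4.0.16 in R 4.3.3. Genes passing filterByExpr with a minimum count of 10 were scaled with TMM, and a quasi-likelihood model with 1 mean per group was fitted to all 13 libraries (biological coefficient of variation 0.151). Standard errors come from the fold change and its F statistic, with 95% intervals. Totals give 0.148 to 0.173 CPM for 3 counts, the limit a count of 0 allows, for counting error only. No library was a duplicate of another, since chi-square divided by its degrees of freedom was 4.92 to 26.1 for pairs inside a group. When tested on simulated counts of 22158 genes with 200 changes, the fit found 49.3% of 1.5-fold changes, 79.1% of 2-fold and 93.9% of 4-fold changes, with 3.27% false calls. That simulation changed a far smaller share of genes than the 42.4% called here. Its rates depend on this share, so they need not hold for this comparison.

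The members and the 68 lists, with 3005 symbols of which 119 stand in more than 1 list, were chosen with earlier results of these data known, and no list was tested as a set. Of 3124 list entries, 2833 were tested, 93 were under the filter and 198 matched no row. Genes are named by a rule: aldh3b1, the 25 largest rises and 25 largest falls (called, without overlap, with a mean log2 CPM of 1 or more and without a placeholder, clone or unplaced name), key members of each list, up to 4 called members per list with the smallest adjusted p, and the 10 smallest adjusted p of the table. Alternatives were RLE, upper-quartile and library-total scaling, DESeq2 1.42.0, limma 3.58.1 voom with group weights, no filter, a minimum count of 50, the 10 compared libraries alone, the replicate number as a block, each replicate left out and, chosen after seeing the data, wild type 14 and 2-HD 1 left out together. Promoter motifs were planned but were not analysed here. Some genes that the rule names are not reported here.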

Additional observations from a re-analysis of the deposited data

Results flagged for a closer look

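In each group of 5 libraries the gap between the highest or lowest library and its nearest neighbour was divided by the range of the group. The ratio passed Dixon's limit for 42 of 700 groups of values, 6%, and chance gives about 1 in 20. Of these, 18 were set by 2-HD 1.

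Library 2-HD 1 was the highest of its group for the summed level of the list aldehyde dehydrogenases (1773 against 1601 CPM, ratio 0.770), the summed level of the list melanophores (1249 against 1006 CPM, ratio 0.861), camk2n1a (84.1 against 68.4 CPM, ratio 0.810) and chgb (39.5 against 27.8 CPM, ratio 0.756). It also stood apart at that end for clul1 (28.0 against 13.3 CPM, ratio 0.738), dusp6 (136 against 113 CPM, ratio 0.721), fbln1 (18.4 against 9.44 CPM, ratio 0.742) and gapdh (2174 against 1726 CPM, ratio 0.719). It also stood apart at that end for mbpa (93.3 against 62.1 CPM, ratio 0.711), mylz3 (5587 against 4545 CPM, ratio 0.723), pmela (313 against 255 CPM, ratio 0.807) and ppp1r3cb (41.5 against 39.7 CPM, ratio 0.734). It also stood apart at that end for rbp4l (54.4 against 24.6 CPM, ratio 0.779), rbpms2a (101 against 81.1 CPM, ratio 0.720), sagb (131 against 89.9 CPM, ratio 0.727) and tyr (69.4 against 53.7 CPM, ratio 0.784). Library 2-HD 1 was the lowest of its group for hspa5 (165 against 293 CPM, ratio 0.719) and sox9b (44.0 against 51.5 CPM, ratio 0.716). Library 2-HD 2 was the highest of its group for the library total (19482700 against 19376100 counts, ratio 0.742). Library 2-HD 3 was the highest of its group for cpt1ab (84.5 against 76.4 CPM, ratio 0.726) and p4ha1b (25.5 against 16.3 CPM, ratio 0.918). Library 2-HD 3 was the lowest of its group for pgam2 (58.6 against 68.0 CPM, ratio 0.804). Library 2-HD 5 was the lowest of its group for the summed level of the list clock output PAR bZIP and NFIL3 factors (619 against 707 CPM, ratio 0.775), the summed level of the list fibrillar and basement membrane collagens (10964 against 12571 CPM, ratio 0.771) and ldha (247 against 282 CPM, ratio 0.855). Library wild type 3 was the highest of its group for slc4a1b (4.19 against 2.19 CPM, ratio 0.714) and trpv6 (4.25 against 2.503 CPM, ratio 0.783). Library wild type 3 was the lowest of its group for mbpa (73.5 against 96.5 CPM, ratio 0.721). Library wild type 5 was the highest of its group for the summed level of the list collagen processing and crosslinking (1718 against 1500.0 CPM, ratio 0.789), gh1 (2.61 against 1.12 CPM, ratio 0.735) and mttp (82.0 against 58.3 CPM, ratio 0.722). Library wild type 5 was the lowest of its group for psme4a (20.9 against 40.5 CPM, ratio 0.729). Library wild type 10 was the highest of its group for eef1a1l1 (10688 against 9265 CPM, ratio 0.753) and gad1b (305 against 268 CPM, ratio 0.729). Library wild type 13 was the highest of its group for fbln1 (4.35 against 3.44 CPM, ratio 0.819), histh1l (1048 against 593 CPM, ratio 0.920), mipa (219.5 against 157 CPM, ratio 0.760) and mmp9 (12.2 against 5.32 CPM, ratio 0.721). Library wild type 13 was the lowest of its group for the summed level of the list apolipoproteins and lipoprotein assembly (7668 against 9913 CPM, ratio 0.846). Library wild type 14 was the highest of its group for drd4b (5.95 against 2.56 CPM, ratio 0.821). Library wild type 14 was the lowest of its group for the library total (17975300 against 18845600 counts, ratio 0.842) and hbbe1.1 (89.7 against 183 CPM, ratio 0.766).

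Values in brackets are those of the library named and of its nearest neighbour within the group. What set these libraries apart was not tested.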

How the results depend on the processing

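The number of called genes stayed between 8120 (without 2-HD 3) and 9968 (without 2-HD 1) when each library was left out, and the number over 2-fold between 1100 and 1494. With RLE factors 9344 genes were called, with upper-quartile factors 9385, with library totals 9797, with DESeq2 9454 and with limma voom 9234. No filter gave 8993, the 10 libraries alone 9011, and leaving out wild type 14 and 2-HD 1 together 9514, with 4757 in each direction. A minimum count of 50 gave 8721 called and 817 over 2-fold, against 1238, as fewer genes were tested (18321). No gene named by the rule that was called in the main analysis reversed its direction under any of these alternatives. Wild type and 2-HD share only the numbers 3 and 5. With the number as a replicate block 4230 genes were called (2174 higher, 2056 lower) and 953 over 2-fold. In that fit libraries with an unshared number, wild type 10, 13 and 14 and 2-HD 1 and 4, carry no weight in the difference. Member counts moved by over 1.5-fold, or to or from 0, in 62 of the 68 lists. Phototransduction falls went from 22 to 6, cytosolic ribosomal falls from 69 to 32 and aldehyde dehydrogenase rises from 12 to 4. Of the 396 genes named by the rule and called in the main analysis, 80 lost their call in this block fit. Deviations of same-numbered libraries correlated at 0.264 and 0.0591, against -0.323 to 0.483 for differently numbered ones. So few shared numbers cannot decide whether the numbers pair the samples. No vehicle group, sampling time or batch was available, and library totals did not overlap between groups, so these cannot be told apart from treatment. Genes near the 3-count limit, such as pomca, rest on few reads.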

Other observations

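Several genes with the smallest adjusted p of the table belong to none of the lists and were even within each group. The MAP kinase scaffold gene ksr2 fell from 26.0 ± 2.32 to 14.6 ± 0.953 CPM, and dgcr2, which encodes an adhesion-type membrane protein, from 17.6 ± 1.98 to 8.49 ± 1.004 CPM. The Golgi gene golim4a rose from 9.35 ± 1.05 to 20.1 ± 1.303 CPM, and its second row from 3.51 ± 0.496 to 9.06 ± 0.752 CPM, so both rows of the symbol moved alike. The GTPase activator gene arhgap17b rose from 9.72 ± 1.04 to 23.4 ± 1.53 CPM and the G protein alpha subunit gene gna15.1 from 6.39 ± 1.02 to 16.9 ± 1.84 CPM. In these 6 rows the libraries of the groups did not overlap, and the adjusted p in edgeR's quasi-likelihood test was 3.76e-05 for each.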
